A study of Mus musculus with 37 samples.

Results

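The macrophage lysosome genes described here are 10 genes whose products work in, or travel to, the lysosome: the proteases CTSB, CTSD and CTSL, the lysosomal cofactor and glycoprotein precursors PSAP and GRN, the membrane proteins LAMP1, LAMP2, CD68 and GPNMB, and the cholesterol carrier NPC2. They were chosen by name and found as 10 of the 60708 rows of the deposited count table, by the Ensembl ID before the version number. Their levels were compared over all 13 groups of the experiment, in 37 libraries of mouse splenocytes. Members with a mean under 10 counts per library were to be stated as poorly captured, and 9 of the 10 fell under that mean. LAMP2 was the exception, so most of what can be said of this gene set is about LAMP2 and, with a wider counting error, LAMP1.

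Lysosomes are acidic organelles that break down material taken up from outside the cell or delivered by autophagy. Macrophages are rich in them, and transcripts of cathepsins, saposins and lysosomal membrane glycoproteins are usually abundant in these cells, while lymphocytes, the main cells of the spleen, carry fewer. LAMP1 and LAMP2 are the most plentiful glycoproteins of the lysosomal membrane. LAMP2 also serves as a receptor and structural protein in autophagy, and LAMP1 appears on the surface of lymphocytes that release cytotoxic granules.

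All splenocytes came from wild-type FVB mice. In 12 groups they were kept for 48 h with RAW264.7, a mouse macrophage-like cell line, or with medium from that line, seeded at 40000 RAW cells and 1500000 splenocytes per well. The RAW cells had first spent 72 h at 21% oxygen (normoxia) or 1% oxygen (hypoxia), without SPP1 or with SPP1 (osteopontin, a secreted cytokine-like glycoprotein) at 1 μg/mL. The splenocytes received the medium of those cells (11 libraries), the cells without a wash (12 libraries, "cells") or the cells after a media wash (12 libraries, "washed"). Each combination of mode, oxygen and SPP1 was 1 group of 3 libraries, except that medium from normoxia without SPP1 had 2. The other group of 2 was naive splenocytes, for which no culture time or oxygen was stated. Brefeldin A, which blocks protein secretion, was added to the cultures before harvest. RAW264.7 is 1 established line, and how many mice gave the splenocytes of a library was not stated. The study's methods state that such experiments were repeated independently, but not which libraries came from separate cultures or animals, so the p-values measure the spread between these libraries.

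The libraries held 631574 to 1337314 counts each (median 1063211). The deposited table held mouse reads aligned to a human genome, so each value below counts the mouse reads that fell on the human gene of that name. On principal components of log2 CPM (counts per 1e+06 counts of a library, scaled by TMM normalization), 4 libraries stood apart: replicates 1 and 2 of washed normoxia SPP1, replicate 1 of washed hypoxia SPP1 and replicate 2 of cells hypoxia no-SPP1. Replicate 1 of medium hypoxia no-SPP1 and replicate 3 of medium normoxia no-SPP1 also lay away from the rest of their mode.

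Of the 10 genes, 3 had no count in any of the 37 libraries. They were CTSD (ENSG00000117984), the main aspartic protease of the lysosome, CD68 (ENSG00000129226), the lysosomal membrane glycoprotein used as a macrophage marker, and NPC2 (ENSG00000119655), the soluble carrier that moves cholesterol out of the lysosome. Over the 39892977 counts of all libraries together, a count of 0 allows a level of up to 0.0752 CPM, taking 3 counts as the limit. This limit covers counting error only. The same limit over the cells libraries alone was 0.217 CPM, over the medium libraries 0.253 CPM, over the washed libraries 0.238 CPM and over the naive libraries 1.88 CPM.

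A further 5 genes had between 1 and 3 counts in all. CTSB (ENSG00000164733) and CTSL (ENSG00000135047) are cysteine proteases of the lysosome. CTSB had 1 count, in cells normoxia no-SPP1 replicate 1, and CTSL had 1 count, in naive replicate 2. GRN (ENSG00000030582), the precursor of the granulins, had 1 count, in cells hypoxia no-SPP1 replicate 3. GPNMB (ENSG00000136235), a transmembrane glycoprotein of phagocytes and pigment cells, had 2 counts, 1 in medium hypoxia no-SPP1 replicate 3 and 1 in washed normoxia no-SPP1 replicate 3. PSAP (ENSG00000197746), the precursor of the saposins that assist sphingolipid breakdown, had 3 counts, all in cells libraries, 1 each in replicate 3 of hypoxia SPP1, normoxia SPP1 and normoxia no-SPP1. In no library did any of these 5 genes have more than 1 count.

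These 8 genes together held 8 of the 1423 counts of the gene set, and none of them passed the low-count filter, so no comparison between groups was possible for them. Counts were near 0 in every mode, with RAW cells added (cells and washed) or without (medium and naive). The 3 counts of PSAP and the single counts of CTSB and GRN fell in cells libraries. That of CTSL fell in naive, and the 2 of GPNMB in medium and washed. The limit was 1.88 CPM in naive and 0.217 CPM in cells, so the modes cannot be compared at these counts. Of all IDs in the series, 62.7% had no count in any library and 5.9% had a mean of at least 10 counts. The part that alignment across species had in these low counts was not tested. Splenocytes and RAW cells are both mouse cells, and in the cells and washed libraries any reads of RAW cells were counted with those of splenocytes. No RAW cells were added to the medium and naive libraries. Fewer cells of a type and less RNA per cell cannot be told apart in any value given here. In cells and washed, reads from RAW cells cannot be told apart from these either.

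LAMP1 (ENSG00000185896) had 283 counts in all, a mean of 7.65 per library, and was thus poorly captured by the same rule, although its mean reached 20 counts in medium hypoxia SPP1. LAMP1 had a count in 34 libraries and was at 0 in 3, all of them washed. LAMP2 (ENSG00000005893) had 1132 counts, a mean of 30.6 per library, and a count in every library. It made up 79.6% of the counts of the gene set, and 2277 IDs (3.75% of the table) had a mean count as high or higher. LAMP1 and LAMP2 were the 2 members among the 5193 IDs that passed the low-count filter.

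**Figure D1:**
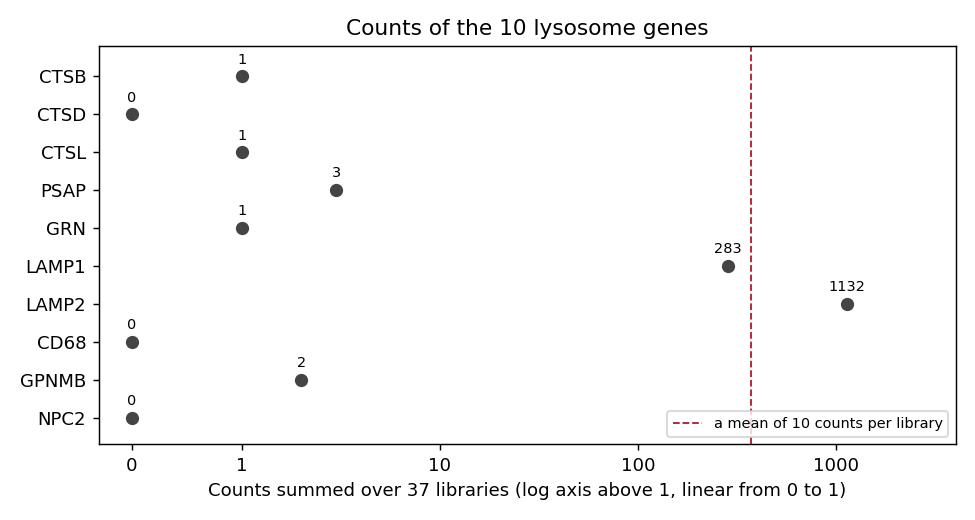
Counts of each gene (rows) summed over the 37 libraries, on an axis that is logarithmic above 1 and linear from 0 to 1, with the sum written above each point. The dashed line marks a mean of 10 counts per library. LAMP2 with 1132 counts lies to its right, LAMP1 with 283 to its left, and the other 8 genes have between 0 and 3 counts.

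The mouse genes of the same names, Lamp1 and Lamp2, lie on different chromosomes and differ in their 3′ ends, which is where the 3′ mRNA-seq kit reads. That the reads counted here came from these 2 genes was not tested. In the GENCODE vM21 annotation of GRCm38, Lamp1 is at chr8:13159161-13175338 on the plus strand with 1 basic protein-coding transcript. Lamp2 is at chrX:38401357-38456454 on the minus strand with 3 such transcripts, which end at 3 different positions, 38401357, 38405062 and 38419507. The counts are per human gene, so the 3 ends of Lamp2 were not told apart. Promoter windows of the mouse genes, 250 bases before the gene start from RefSeq on GRCm38.p6, were searched for CACGTG, the core of the element bound by TFEB, the transcription factor known to drive lysosomal genes. The motif is its own reverse complement, so both strands were searched at once, and no matches overlapped. It occurred in 6.02% of the 32851 promoter windows of the same length. A window was given for 9 of the 10 genes (10 windows), and 3 windows held the motif: Lamp1 with 4 matches, Ctsd with 2 and Ctsl with 1. Only 7 windows of all (0.0213%) held 4 or more. The windows of Lamp1 and Lamp2 are shown, with CACGTG in capitals. Any link between the motif and the values below was not tested. The Lamp1 window is chr8:13158911-13159160 on the plus strand and the Lamp2 window is chrX:38456461-38456710 on the minus strand, each written 5′ to 3′ along its gene.
Lamp1: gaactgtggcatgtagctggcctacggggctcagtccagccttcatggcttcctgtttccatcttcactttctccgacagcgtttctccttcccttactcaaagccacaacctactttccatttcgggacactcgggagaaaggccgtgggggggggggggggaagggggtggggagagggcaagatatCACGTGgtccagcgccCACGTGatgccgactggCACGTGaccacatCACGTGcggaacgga
Lamp2: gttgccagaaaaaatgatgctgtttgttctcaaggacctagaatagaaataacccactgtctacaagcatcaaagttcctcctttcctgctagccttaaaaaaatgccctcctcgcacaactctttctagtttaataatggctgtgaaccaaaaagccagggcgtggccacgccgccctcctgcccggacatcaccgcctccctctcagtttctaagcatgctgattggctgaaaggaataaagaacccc
In the Lamp1 window the matches start 61, 45, 28 and 15 bases before the gene start. The Lamp2 window holds none of these letters in this order. A match is a description of the letters, and binding was not measured here.

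LAMP2 differed between the modes of exposure. It was highest in splenocytes given RAW medium, lower in those given RAW cells and lowest in those given washed RAW cells, at 49.5 ± 12.8 CPM (SD, n = 11), 21.1 ± 8.71 CPM (SD, n = 12) and 15.1 ± 6.21 CPM (SD, n = 12) over the 4 conditions of each mode. Naive splenocytes lay between medium and cells, at 33.2 ± 19.4 CPM (SD, n = 2). LAMP2 and LAMP1 both passed edgeR's quasi-likelihood test of any difference among the 13 groups (adjusted p 3.67e-05 and 0.00653), as did 53.6% of all tested IDs.

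In the medium mode, LAMP2 was at 52.2 and 37.0 CPM in the 2 normoxia no-SPP1 libraries. With SPP1 in normoxia the 3 libraries had 42.8, 43.9 and 67.4 CPM of LAMP2. In hypoxia without SPP1 they had 28.5, 44.4 and 64.4 CPM. The spread within these groups was as wide as the distance between them. In hypoxia with SPP1 LAMP2 was at 62.9, 61.0 and 40.4 CPM, with the highest group mean of all 13 (54.8 ± 12.5 CPM, SD, n = 3). The lowest medium value, 28.5 CPM, came from medium hypoxia no-SPP1 replicate 1, which stood apart on the principal components.

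In the cells mode, normoxia without SPP1 gave LAMP2 at 20, 23 and 10.96 CPM. Normoxia with SPP1 gave 10.8, 16.8 and 13.3 CPM. The hypoxia libraries lay mostly higher. Without SPP1 they had 19.2, 33.96 and 22.7 CPM, and with SPP1 14.3, 32.3 and 35.2 CPM. Of the 12 cells libraries, 9 lay below every medium library in LAMP2.

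In the washed mode, LAMP2 was at 17.6, 15.8 and 10.4 CPM in normoxia without SPP1 and at 8.68, 12.5 and 16.7 CPM in hypoxia without SPP1. Hypoxia with SPP1 gave 14.5, 14.7 and 10.98 CPM. Normoxia with SPP1 was the most spread, at 21.5, 30.1 and 7.27 CPM, and its 2 higher values are from libraries that stood apart. Of the 12 washed libraries, 11 lay below every medium library. The 2 naive libraries had 19.5 and 46.9 CPM, a range that overlapped that of each of the other modes.

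Ordered by mean LAMP2, the 4 medium groups came first (54.8 to 44.6 CPM), then naive (33.2 CPM), then the 2 hypoxia cells groups (27.3 and 25.3 CPM) and then washed normoxia SPP1 (19.6 CPM). The last 5 groups, 2 of normoxia cells and 3 of washed cells, lay between 18.0 and 12.6 CPM. No neighbours in this order differed beyond their spread: in all 12 neighbouring pairs the ranges overlapped and the gap was smaller than the larger SD.

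**Figure D2:**
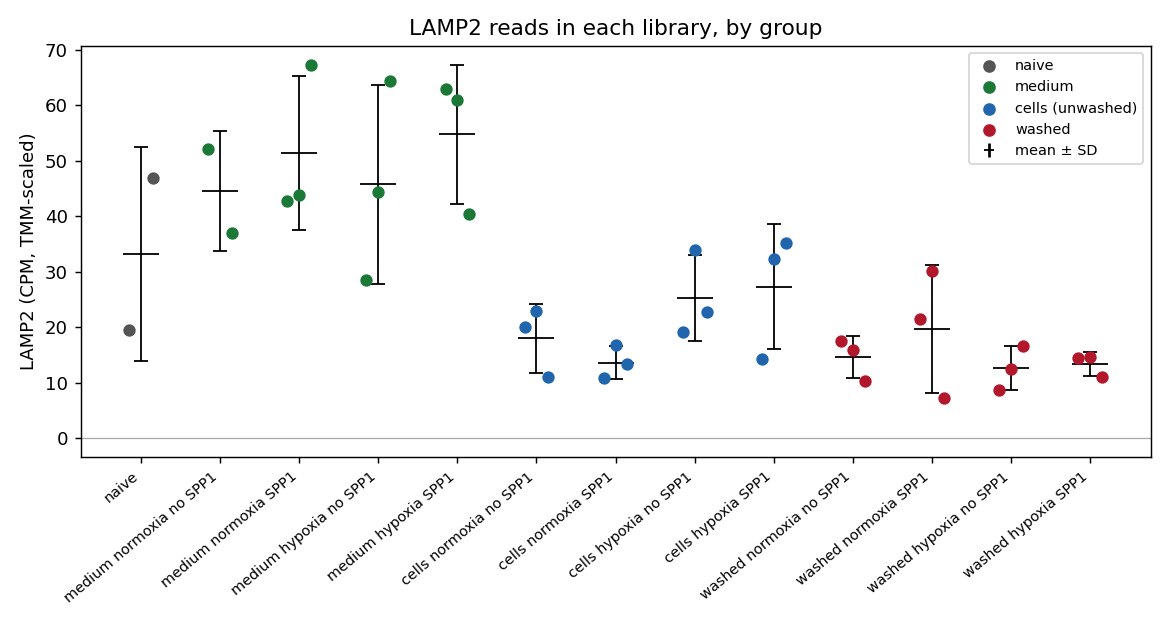
LAMP2 in CPM (vertical axis) in each library, by group along the horizontal axis; each point is 1 library, coloured by mode, and the black bars give the mean and SD of the group. The medium libraries lie between 28.5 and 67.4 CPM, and 11 of the 12 washed libraries lie below all of them.

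The fall of LAMP2 from medium to the modes with RAW cells passed the test. Against medium, LAMP2 in cells had a log2 fold change of -1.27 by edgeR's quasi-likelihood test (SE 0.22, adjusted p 9.8e-06), that is 2.41-fold lower. In washed it was lower by -1.72 (SE 0.23, adjusted p 5.77e-08), 3.31-fold. Medium exceeded cells in each of the 4 conditions of oxygen and SPP1, by 1.81-fold to 3.77-fold in group means, and exceeded washed in each by 2.62-fold to 4.09-fold. The median log2 fold change over all tested IDs was near 0 in both comparisons (-0.02 and -0.03), and 10.1% and 8.05% of the tested IDs had a lower value than LAMP2. Both tested members were called in each of these comparisons, where 48.7% of all tested IDs were called between cells and medium and 58.7% between washed and medium. A call in these comparisons was thus common among all IDs. Without the 4 libraries that stood apart the values were -1.35 and -2.10, and without the 2 medium libraries that stood apart -1.40 and -1.87.

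The difference between washed and unwashed RAW cells in LAMP2 was smaller, -0.46 (SE 0.23, adjusted p 0.221), and 0 of the 2 members were called where 7.24% of all tested IDs were. The interval of the LAMP2 difference ran from -0.92 to 0.01. Without the 4 libraries that stood apart, LAMP2 was at -0.75 (unadjusted p 0.00608, adjusted p 0.097 by edgeR) and LAMP1 at -1.01 (adjusted p 0.328). LAMP1 was -1.31 (SE 0.51) at an unadjusted p of 0.0146 and an adjusted p of 0.105, and was called without washed hypoxia no-SPP1 replicate 3 (-1.88, adjusted p 0.0348) or without washed normoxia SPP1 replicate 3 (-1.68, adjusted p 0.0436). These p-values are from edgeR, and 1 of the 2 members had an unadjusted p under 0.05. DESeq2 called 0 of the 2.

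No culture was stated for the naive libraries, so culture itself and exposure cannot be told apart in differences from naive. Against naive splenocytes, LAMP2 was lower in washed by -1.15 (SE 0.39, adjusted p 0.0212 by edgeR), 2.22-fold, and 10 of the 12 washed libraries lay below both naive libraries. That was 1 of the 2 members called, against 34.5% of all tested IDs. The call rests on naive replicate 2, the shallowest library of all. Without it LAMP2 was at -0.39 (adjusted p 0.708). The differences of medium and cells from naive were 0.58 (SE 0.41) and -0.69 (SE 0.39) for LAMP2, with 0 of the 2 members called in either, 0 at an unadjusted p under 0.05, and 0 by DESeq2, beside 32.4% and 27.3% of all tested IDs. Their 95% intervals, -0.26 to 1.41 and -1.49 to 0.10, are wide, with 2 libraries in the naive arm. Leaving out naive replicate 1 moved LAMP2 in medium to 0.13 and leaving out naive replicate 2 moved it to 1.3 (adjusted p 0.885 and 0.15). LAMP2 in washed was at -1.45 against naive (adjusted p 0.00274) without the 4 libraries that stood apart.

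LAMP1 followed the same order of medium, cells and washed at lower counts, with naive between cells and washed. Medium libraries had 13.1 ± 9.44 CPM of LAMP1 (SD, n = 11), cells libraries 6.58 ± 4.63 CPM (SD, n = 12), washed libraries 2.07 ± 2.30 CPM (SD, n = 12) and naive libraries 5.05 ± 0.233 CPM (SD, n = 2). In counts, medium libraries held 1 to 28 (median 13), cells libraries 2 to 19 (median 7), washed libraries 0 to 7 (median 1) and the naive libraries 5 and 4. The ranges of neighbouring modes overlapped. Of the 11 medium libraries, 8 lay above every washed library in CPM. The lowest medium value, 0.771 CPM from a single read, was again medium hypoxia no-SPP1 replicate 1.

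Within the medium mode LAMP1 was at 18.1 and 3.49 CPM in normoxia without SPP1 and at 3.17, 10.5 and 28.6 CPM in normoxia with SPP1. Hypoxia gave 0.771, 11.8 and 12.2 CPM without SPP1 and 27.1, 8.32 and 20.7 CPM with it. LAMP1 thus varied widely within each medium group. In the washed mode normoxia gave 1.04, 0.93 and 3.11 CPM without SPP1 and 0, 1.16 and 4.54 CPM with it. Hypoxia gave 0.964, 0 and 7.80 CPM without SPP1 and 0, 2.75 and 2.53 CPM with it, so a washed library rarely held more than a few LAMP1 reads. Of the 12 neighbouring pairs in the order of LAMP1 group means, 11 overlapped. The exception was naive, at 4.88 and 5.21 CPM, above cells normoxia no-SPP1, whose mean was 2.03 CPM lower, more than the larger SD of 1.05 CPM. These values rest on 5 and 4 counts in naive and 2, 4 and 4 in cells normoxia no-SPP1. At such counts the SD of 2 or 3 libraries is a poor guide to the counting error.

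By edgeR's quasi-likelihood test LAMP1 was lower in washed than in medium by -2.46 (SE 0.48, adjusted p 4.22e-05), 5.49-fold, with medium above washed in each of the 4 conditions (2.82-fold to 10.6-fold in group means). LAMP1 passed the filter through medium and cells, not washed, so this difference is not independent of the filter. With no filter on low counts it was -2.45 (adjusted p 1.51e-08 by edgeR). LAMP1 was lower in cells than in medium by -1.14 (SE 0.42, adjusted p 0.0227 by edgeR), 2.21-fold. Here the conditions differed: medium exceeded cells by 1.90-fold to 5.03-fold in 3 of them, but in hypoxia without SPP1 the medium mean was 0.772 times the cells mean. Without the 4 libraries that stood apart LAMP1 was at -2.13 in washed and -1.12 in cells, and without the 2 medium libraries at -2.80 and -1.48. The call between cells and medium was lost without medium normoxia no-SPP1 replicate 2 (-0.76, adjusted p 0.205) or without medium normoxia SPP1 replicate 3 (-0.89, adjusted p 0.0839). LAMP1 against naive was 1.27 (SE 0.86) in medium, 0.12 (SE 0.91) in cells and -1.19 (SE 0.91) in washed, and none of these passed the test (adjusted p 0.263, 0.942 and 0.325).

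In the cells mode mean LAMP1 was higher in hypoxia than in normoxia, but the difference did not pass the test over all IDs. In cells hypoxia without SPP1 it had 12.02, 8.20 and 11.8 CPM, and with SPP1 5.58, 8.28 and 15.6 CPM. In cells normoxia it had 1.90, 3.999 and 3.13 CPM without SPP1 and 1.54, 1.68 and 5.19 CPM with it. The means were 10.3 ± 3.57 CPM in hypoxia and 2.91 ± 1.47 CPM in normoxia (SD, n = 6 each). The counts behind these values were 7 to 19 and 2 to 7. The log2 fold change was 1.77 (SE 0.62), 3.41-fold, with an unadjusted edgeR p of 0.00714, but an adjusted p of 0.109, so it did not pass the correction over all tested IDs.

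LAMP2 in the same libraries was at 26.3 ± 8.73 CPM in hypoxia and 15.8 ± 5.00 CPM in normoxia (SD, n = 6 each), with ranges that overlapped (14.3 to 35.2 and 10.8 to 23.0). Its log2 fold change was 0.75 (SE 0.31), at an unadjusted edgeR p of 0.0216 and an adjusted p of 0.19. Thus 0 of the 2 members were called for hypoxia in the cells mode, where 3.62% of all tested IDs were, with 2 of 2 at an unadjusted p under 0.05 and 0 called by DESeq2. When only the 12 cells libraries were fitted, LAMP1 was called (1.80, adjusted p 0.0203 by edgeR) and LAMP2 was not (0.78, adjusted p 0.117). In that fit LAMP1 passed the filter through hypoxia libraries alone, with 2 to 7 counts in normoxia, so this call is not independent of the filter. With all libraries and no filter on low counts LAMP1 was not called (1.77, adjusted p 0.0598 by edgeR). The values were 1.87 for LAMP1 and 0.64 for LAMP2 without the 4 libraries that stood apart. Among all tested IDs, 97.1% had a lower hypoxia difference than LAMP1 and 86.7% a lower one than LAMP2 in this mode.

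**Figure D3:**
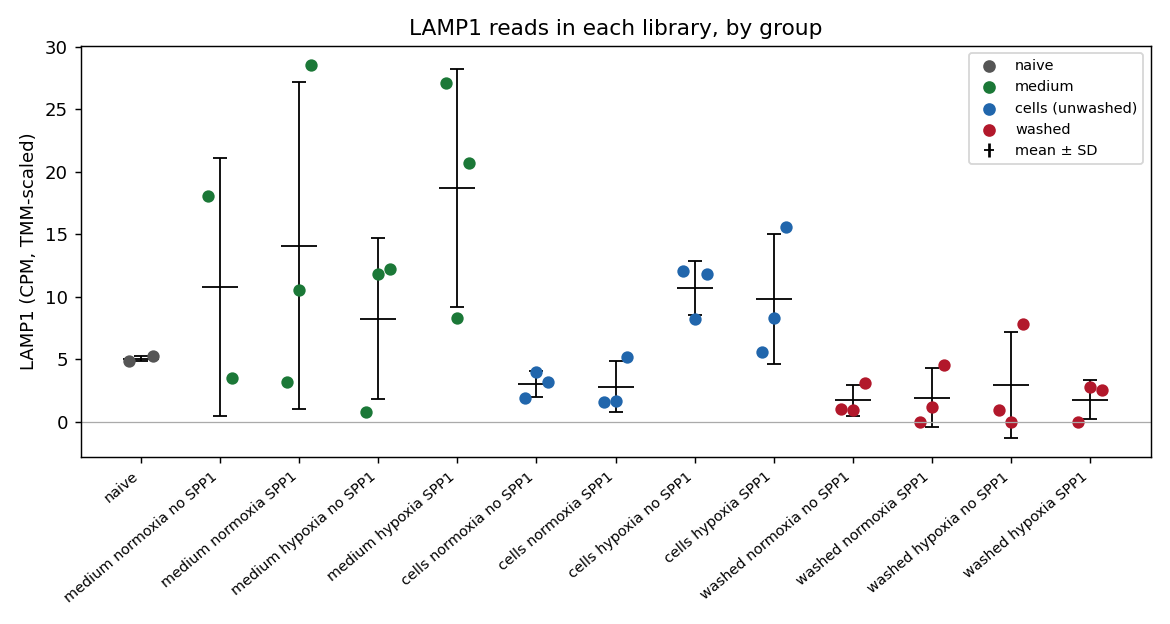
LAMP1 in CPM (vertical axis) in each library, by group along the horizontal axis; points are libraries coloured by mode, and black bars give the mean and SD, which reach below 0 where the counts are few. In the cells mode the 6 hypoxia libraries are at 5.58 to 15.6 CPM and the 6 normoxia libraries at 1.54 to 5.19 CPM, a difference not called by the test.

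Hypoxia of the RAW culture gave no called difference in the other modes. In medium, LAMP2 was at 50.3 ± 14.7 CPM in hypoxia (SD, n = 6) and 48.6 ± 11.8 CPM in normoxia (SD, n = 5), which differ by 0.06 on the log2 scale (95% interval -0.55 to 0.68). LAMP1 in medium differed by 0.01 (-1.26 to 1.28). In washed, LAMP2 differed by -0.37 (-1.06 to 0.31) and LAMP1 by 0.29 (-1.38 to 1.95). By edgeR 0 of the 2 members were called in either mode and 0 had an unadjusted p under 0.05, and DESeq2 called 0. Of all tested IDs 0.077% were called in medium and 0.0385% in washed. Without the 4 libraries that stood apart, the washed values turned to 0.29 for LAMP2 and -0.02 for LAMP1.

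The difference of the hypoxia effect between modes was tested directly. For LAMP1 the effect in cells exceeded that in medium by 1.76 (SE 0.83, unadjusted p 0.042, adjusted p 0.543), and for LAMP2 by 0.68 (SE 0.43, adjusted p 0.715). From cells to washed the effect changed by -1.48 for LAMP1 (SE 1.07, adjusted p 0.836) and by -1.12 for LAMP2 (SE 0.46, unadjusted p 0.0197, adjusted p 0.587). The LAMP2 value was -0.35 without the 4 libraries that stood apart. With edgeR and with DESeq2, 0 of the 2 members were called for either difference, beside 0.481% and 0.173% of all tested IDs by edgeR. A hypoxia effect on either gene confined to the cells mode was thus not shown.

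SPP1 gave no called difference in LAMP1 or LAMP2 in any mode. For LAMP2 the log2 fold change with SPP1 was 0.23 in medium (95% interval -0.38 to 0.84), -0.14 in cells (-0.77 to 0.49) and 0.24 in washed (-0.45 to 0.92). For LAMP1 it was 0.77 in medium (-0.38 to 1.92), -0.10 in cells (-1.38 to 1.18) and -0.04 in washed (-1.93 to 1.84). By edgeR 0 of the 2 members were called in each mode and 0 had an unadjusted p under 0.05, and DESeq2 called 0. For LAMP1 in medium DESeq2 gave no adjusted p (unadjusted p 0.184), so LAMP1 could not be called there. The background was as low, with 0.25% of all tested IDs called in medium, 0% in cells and 0.0193% in washed. The 2 medium libraries that stood apart are both without SPP1, and leaving them out brought the medium values to 0.15 for LAMP1 and 0.00955 for LAMP2. Leaving out 1 library at a time, LAMP1 in medium ran from 0.25 to 1.58, the lowest without medium normoxia SPP1 replicate 3 and the highest without medium normoxia no-SPP1 replicate 2, and LAMP2 from 0.11 to 0.37. In cells, leaving out the 4 libraries that stood apart brought LAMP1 to -0.18 and LAMP2 to -0.00261.

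The SPP1 effect did not differ detectably between modes either. From medium to cells it changed by -0.37 (SE 0.43) for LAMP2 and -0.87 (SE 0.85) for LAMP1, and from cells to washed by 0.37 (SE 0.46) and 0.06 (SE 0.99). Without the 2 medium libraries that stood apart the change from medium to cells was -0.14 for LAMP2 and -0.24 for LAMP1, and leaving out 1 library at a time LAMP1 ran from -1.68 (without medium normoxia no-SPP1 replicate 2) to -0.36 (without medium normoxia SPP1 replicate 3). The change from cells to washed was -0.46 for LAMP2 and 0.85 for LAMP1 without the 4 libraries that stood apart. By edgeR 0 of the 2 members and 0% of all tested IDs were called in both comparisons, 0 members had an unadjusted p under 0.05, and DESeq2 called 0 members. In washed, the LAMP2 difference with SPP1 turned to -0.46 and the LAMP1 difference to 0.67 without the 4 libraries that stood apart, which hold 3 of the 6 washed SPP1 libraries.

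**Figure D4:**
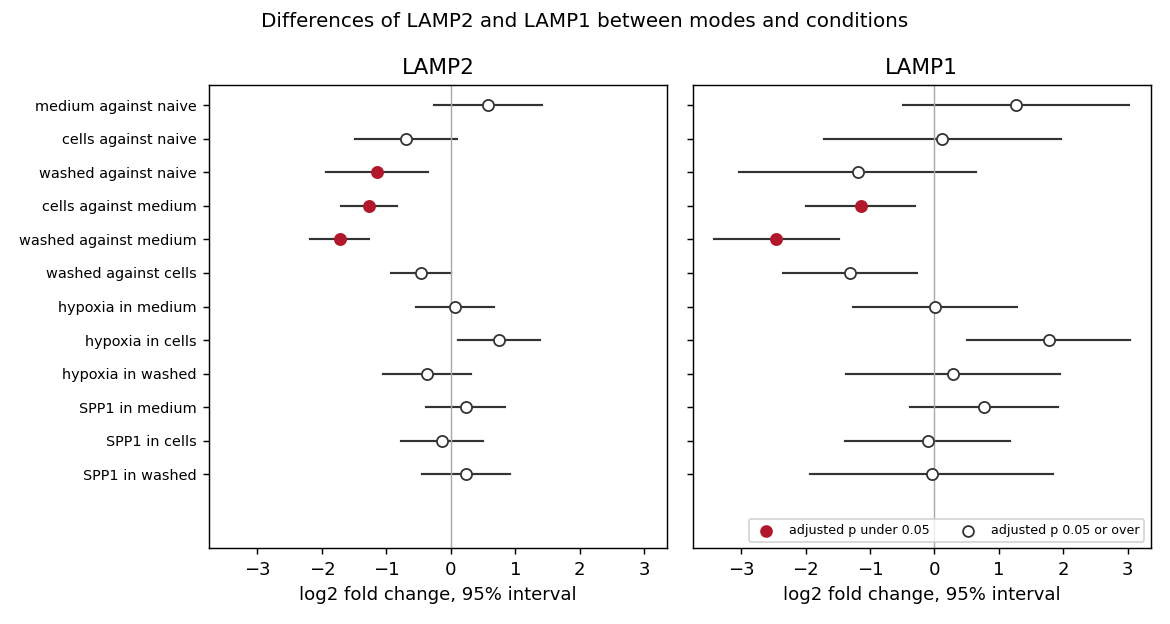
Log2 fold changes (horizontal axis) of LAMP2 (left) and LAMP1 (right) for 12 comparisons (rows), with 95% intervals; filled points had an adjusted p under 0.05 in edgeR's quasi-likelihood test. Filled points stand at washed against naive (LAMP2 alone, -1.15), cells against medium and washed against medium (both genes), and all oxygen and SPP1 comparisons are open.

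Within groups, both genes spread more than sampling of reads alone gives, with a chi-square per degree of freedom of 4.07 for LAMP1 and 3.66 for LAMP2 (24 degrees of freedom each). Over the 13 group means of log2 CPM, LAMP1 and LAMP2 correlated with r = 0.87, and 5.33% of 2854 well-counted IDs had a higher r with LAMP2. All points share the same libraries, and the 4 medium groups lie at the high end of both. The IDs most like LAMP2 over the 13 groups were ENSG00000174238 (r = 0.972) and ENSG00000089048 (r = 0.971), and 92 of the 2854 had an r over 0.9. For the first, the 11 medium libraries had 251 ± 36.4 CPM (SD), the 12 cells libraries 116 ± 29.0, the 12 washed libraries 97.8 ± 11.2 and the 2 naive libraries 142 ± 36.7. The second had 670 ± 63.6, 341 ± 99.4, 267 ± 59.5 and 459 ± 282 CPM in the same order. No table that names these human IDs was used here, so they are given by ID alone.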

How the data were processed

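RNA of 37 mouse splenocyte samples was read with a 3′ mRNA-seq kit. Per the series text, the authors aligned the reads to GRCh38, a human build, with STAR 2.7.10b, counted them with featureCounts (Rsubread 2.0.3) and deposited raw counts per gene for each library. The annotation release, the treatment of multiply aligned reads and any use of molecular identifiers are not given in the sources used here, so counts may include PCR copies, and reads of related genes may be shared. Mouse transcripts with diverged 3′ ends may be undercounted.

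Members were matched by Ensembl ID, and their symbols were given with the rule that chose them. Members and lists were chosen with earlier results of these data known. All 10 members are named, with the 2 IDs whose 13 group means correlated best with those of the captured member, LAMP2, among IDs of mean log2 CPM of at least 4. LAMP1, under a mean of 10 counts, was by the plan to be read no further. Its values are given because it passed the filter below, through its medium and cells libraries. Of the 60708 IDs, 0 occurred in the mouse gene tables used here, so the planned lists of other lysosome, proton pump, regulator and cell type marker genes were not run. Coordinates and promoters are of the mouse genes of the same name.

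Tests used edgeR 4.0.16 in R 4.3.3. The filter was filterByExpr at a minimum count of 10 (5193 of 22657 IDs with a count, holding 97.8% to 99.4% of the counts in a library). After TMM scaling, all libraries entered 1 quasi-likelihood fit with 13 group means. A call is a Benjamini-Hochberg adjusted p under 0.05 over all tested IDs. Effects of oxygen and SPP1 were averaged with equal weight over the other factor, and a mode over its 4 groups. Alternatives were RLE scaling, no filter on low counts, DESeq2 1.42.0, the replicate number as a block, leaving out each library, leaving out the libraries that stood apart, and fits of the compared modes alone. In 35 pairs of replicates none agreed within sampling noise (chi-square per degree of freedom 2.65 to 36.6). The pipeline was tested on simulated counts with known changes.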

Additional observations from a re-analysis of the deposited data

Results flagged for a closer look

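In 12 sets of 5 or 6 libraries that share mode and oxygen, examined for LAMP1 and LAMP2, 1 library lay further from the others than Dixon's 95% limit allows; chance gives about 1 in 20. It was washed hypoxia no-SPP1 replicate 3, with LAMP1 at 7.80 CPM (7 counts), where the other 5 washed hypoxia libraries had 0 to 2.75 CPM (0 to 3 counts). In washed hypoxia no-SPP1 replicate 3, LAMP2, at 16.7 CPM, was not set apart in the same way.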

How the results depend on the processing

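Of 771 alternative values of 32 differences in LAMP1 and LAMP2, 721 kept direction and side of the threshold, 5 lost a call, 3 gained one and 42 changed sign, none of them a called difference. The DESeq2 value of LAMP1 for SPP1 in medium had no adjusted p and was counted as kept. With every ID with a count, and with the fit of washed and naive libraries alone, 0 members instead of 1 were called between washed and naive. The fit of the cells libraries alone called 1 member instead of 0 for hypoxia. That member was LAMP1, which passed the filter of that fit through hypoxia libraries alone. The cause of these changes was not tested.

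Leaving out 1 library at a time, the members called numbered 1 to 2 for cells against medium, 0 to 1 for washed against cells and 0 to 1 for washed against naive, by the libraries named above. In the same fits, uncalled log2 fold changes that crossed 0 ran as follows. For cells against naive they ran from -0.0701 to 0.195 for LAMP1 and from -1.12 to 0.0459 for LAMP2. For hypoxia in medium they ran from -0.34 to 0.83 for LAMP1 and from -0.12 to 0.22 for LAMP2. For SPP1 in cells they ran from -0.49 to 0.0408 for LAMP1 and from -0.272 to 0.0156 for LAMP2. In washed, LAMP1 ran from -0.80 to 1.10 for SPP1 and from -0.85 to 1.04 for hypoxia, and its change of the SPP1 effect from cells to washed ran from -0.687 to 1.2.

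Without the 4 libraries that stood apart, differences in washed turned to -0.0246 for LAMP1 and 0.29 for LAMP2 with hypoxia, and to 0.67 for LAMP1 and -0.46 for LAMP2 with SPP1, and the change of the SPP1 effect from cells to washed turned to -0.46 for LAMP2. Hypoxia in medium turned for LAMP1 to -0.0499 without the 2 medium libraries that stood apart and to -0.00581 in the medium libraries alone.

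Over all tested IDs, most libraries of the same replicate number did not deviate together (187 pairs, median r 0.00441, 35 above 0.1, lowest -0.477). In 374 pairs of other numbers the median r was 0.000666, so the numbers were not taken to pair samples. The single counts of PSAP, GRN and GPNMB all fell in replicate 3, that of CTSB in replicate 1 and that of CTSL in naive replicate 2. A tie of these few counts to the replicate number was not tested. The replicate block turned LAMP1 in cells against naive to -0.29 and changed no call of a member. The count of poorly captured members was 9, and 8 when judged by the highest group mean. At these depths 3 counts are a few CPM in a single library. Pooled over the libraries of a mode they are 0.217 CPM in cells, 0.238 in washed, 0.253 in medium and 1.88 in naive. Changes in the other 8 genes below such levels were not detectable.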
